A study of Mus musculus with 6 samples.

Results

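The red cell membrane skeleton was followed here through 9 genes, namely Sptb, Ank1, Epb41, Epb42, Dmtn, Add1, Add2, Tmod1 and Mpp1. They were chosen by name, as genes whose proteins build or anchor the skeleton, and each was read from its RefSeq transcript with the highest mean count. All 9 passed the filter on low counts and were among 12381 genes tested, of 16111 genes with at least 1 count. Between uninduced cells and day 4, RNA of 8 of them rose and that of Add2 fell, while the steps at which they moved differed from gene to gene.

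The study measured poly(A) RNA in MEL cells, a line of mouse erythroleukemia cells that begin to make hemoglobin when DMSO is added to the medium. Cells in log-phase suspension culture received 2% DMSO and were collected at day 0 (uninduced), day 2 and day 4, with 2 biological replicate cultures and so 2 libraries for each day. All 6 libraries come from this transformed line, in medium with serum, so the comparisons describe a cell line model and not bone marrow erythroblasts. Counts on RefSeq transcripts summed to between 35294930 and 53899476 per library, where a read can count toward several transcripts of a gene, and 44340060 to 63927765 further reads per library fell on no transcript.

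Beneath the membrane of a red cell lies a lattice of long flexible spectrin tetramers, made of alpha and beta chains, whose ends meet on short actin filaments. The lattice is tied to the membrane at a pair of complexes. Ankyrin joins beta spectrin to the anion exchanger in the bilayer, with the Epb42 protein on the same complex, and the junctional complex joins the actin nodes to glycophorin C and the anion exchanger through the Epb41 protein, adducin, dematin and Mpp1, while tropomodulin caps the slow-growing filament ends. Inherited defects of several of these proteins give spherocytosis or elliptocytosis, in which red cells lose their shape and break down early.

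Promoter sequence is shown for 4 members, the rising Sptb, Add1 and Mpp1 and the falling Add2. They are the members with a single window in the RefSeq promoter table of GRCm38.p6 that holds no exon base of GENCODE. Each run is the 250 bases before the start that the table gives, read 5′ to 3′ on the gene's own strand. Capitals mark GATA letters (GATA preceded by A or T and followed by A or G, which erythroid GATA factors can recognise) and CACCC letters (which Kruppel-like factors can recognise), searched on both strands, and no capital run overlaps another. The windows are chr12:76710548-76710797 on the minus strand for Sptb, chr5:34573414-34573663 on the plus strand for Add1, chr6:86028431-86028680 on the plus strand for Add2 and chrX:75131017-75131266 on the minus strand for Mpp1.
Sptb: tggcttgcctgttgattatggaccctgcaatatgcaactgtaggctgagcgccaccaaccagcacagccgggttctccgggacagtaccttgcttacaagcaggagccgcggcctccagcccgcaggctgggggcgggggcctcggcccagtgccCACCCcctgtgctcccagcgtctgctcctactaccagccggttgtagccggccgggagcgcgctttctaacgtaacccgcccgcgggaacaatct
Add1: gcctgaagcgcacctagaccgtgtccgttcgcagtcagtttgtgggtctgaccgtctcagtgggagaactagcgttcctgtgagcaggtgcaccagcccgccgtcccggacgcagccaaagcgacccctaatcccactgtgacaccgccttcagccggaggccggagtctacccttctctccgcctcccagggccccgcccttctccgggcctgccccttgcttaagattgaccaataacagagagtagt
Add2: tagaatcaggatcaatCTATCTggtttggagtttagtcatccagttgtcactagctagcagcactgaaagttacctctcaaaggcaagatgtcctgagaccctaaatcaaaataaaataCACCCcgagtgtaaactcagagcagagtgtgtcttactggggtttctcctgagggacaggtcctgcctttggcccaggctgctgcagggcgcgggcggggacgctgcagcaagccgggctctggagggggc
Mpp1: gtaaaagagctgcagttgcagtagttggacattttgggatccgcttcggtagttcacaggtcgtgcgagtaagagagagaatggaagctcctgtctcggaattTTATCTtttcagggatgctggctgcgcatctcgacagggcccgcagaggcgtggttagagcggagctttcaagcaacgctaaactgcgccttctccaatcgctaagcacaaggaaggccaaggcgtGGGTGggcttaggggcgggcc
The Sptb window held 1 CACCC match, the Add1 window neither kind, and the Add2 and Mpp1 windows 1 of each. The Add2 window lies before the most upstream start of the gene, whereas the transcript that stands for Add2 here begins at position 86078057 of chromosome 6 in GENCODE. A window was in the table for 7 of the 9 members, with 3 windows for Epb41, and for Ank1 and Dmtn there was none. Windows of Epb41, Epb42 and Tmod1 reach into exons of GENCODE and are not printed. GATA letters stood in a window of 4 of the 7, CACCC letters in 4 and E-box letters (CANNTG) in 6, and over 32536 promoter windows of the same length the shares were 26.5% for GATA, 52.1% for CACCC and 66.2% for the E-box. The member counts take any window of a gene, with 3 for Epb41, while the shares are of single windows, so they are unlike measures. A match describes letters and does not show that a factor binds there.

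From day 0 to day 4, 8 members rose and Add2 fell, and no member missed the test (edgeR quasi-likelihood test, adjusted p below 0.05). Among all genes tested, 35.5% were called higher and 36.4% lower in this comparison, so a call by itself was common in either direction. The median log2 fold change of the members was 1.66, beside -0.02 over all genes, whose lower and upper quartiles were -0.75 and 0.68. The order of the changes was Epb42, Sptb, Tmod1, Ank1, Add1, Dmtn, Mpp1, Epb41 and, below 0, Add2. All these changes are relative to a scaled library size. A rise is thus a larger share of the RNA counted and not an amount of RNA per cell. Because these are bulk samples, more cells of an erythroid state and a larger share within each cell cannot be told apart.

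**Figure D1:**
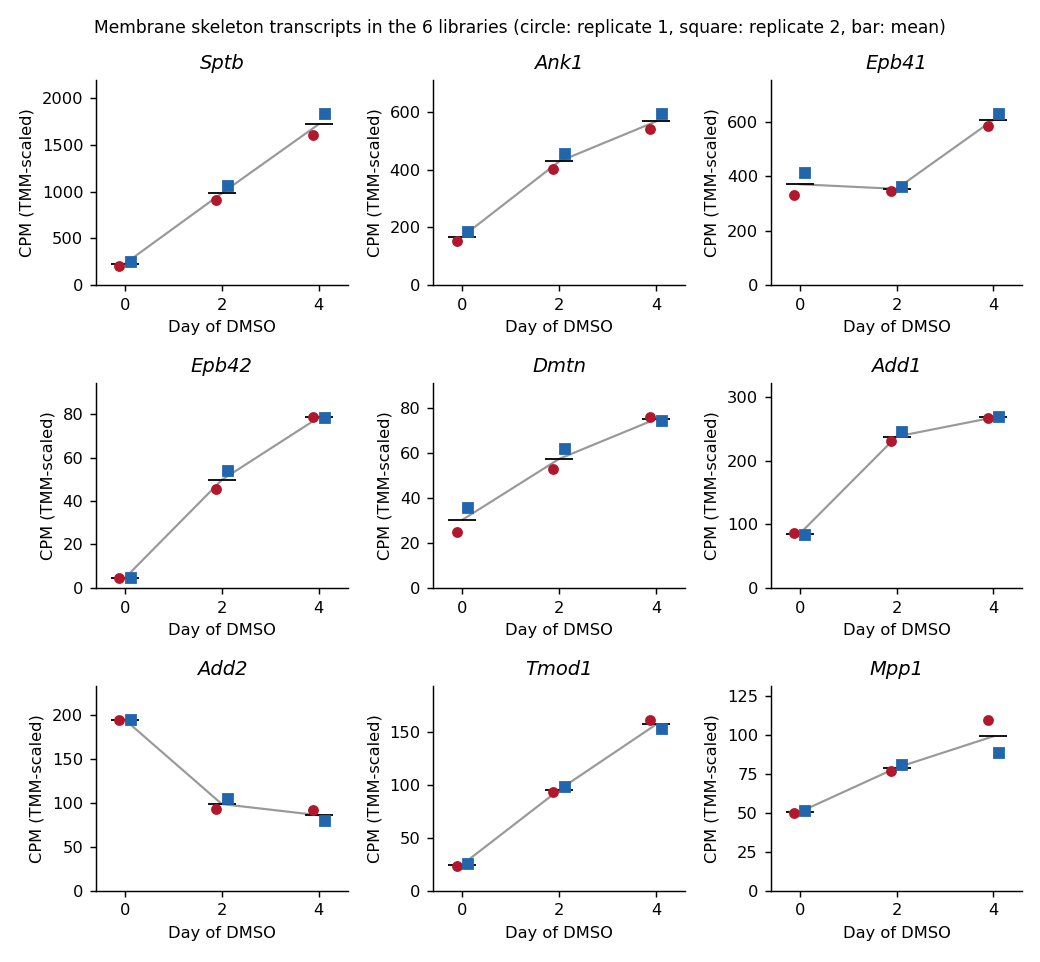
CPM (counts relative to TMM-scaled library size) of the 9 skeleton genes, 1 panel per gene with its own linear axis from 0, by day of DMSO, with a circle for replicate 1, a square for replicate 2 and a bar at the mean of each day. Epb42 climbed from 4.58 to 78.5 CPM on average while Add2 fell from 195 to 86.1.

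Erythroid beta spectrin, encoded by Sptb (NM_013675, GRCm38 chr12:76580488-76710547, minus strand, 36 exons), is the chain that ankyrin holds. Levels are given as CPM, the count of a transcript relative to the TMM-scaled library size. Sptb stood at 208 and 250 CPM in the day 0 libraries, 904 and 1060 at day 2 and 1610 and 1830 at day 4. The 3 days did not overlap, and the day 4 libraries were the highest. The daily means were 229 ± 30, 983 ± 112 and 1720 ± 158 CPM in that order (SD, n = 2). The rise was 4.3-fold over the first step (log2 fold change 2.1, SE 0.15, edgeR adjusted p = 1.29e-06) and 1.75-fold over the second (0.81, SE 0.15, edgeR adjusted p = 0.00268), and 7.51-fold in all.

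Ank1 (GRCm38 chr8:22974836-23150501, plus strand) encodes the ankyrin that ties beta spectrin to the anion exchanger. The files held 9 Ank1 transcripts with nearly the same counts, and the one with the highest mean was NR_102386, an accession of the non-coding class with 45 exons. Its levels were 153 and 183 CPM at day 0, 403 and 455 at day 2 and 542 and 594 at day 4, with no overlap between days. The antisense gene Gm15816 shares 328 bases with this transcript, 3.92% of its exon bases. Per kilobase of transcript, Ank1 RNA went from 0.919 and 0.912 of Sptb RNA at day 0 to 0.419 and 0.403 at day 4, a ratio chosen after the values were seen and not tested. Ank1 rose 2.55-fold over the first step (log2 fold change 1.35, SE 0.13, edgeR adjusted p = 9.01e-06) and 3.37-fold over the whole course. The 1.32-fold rise at the second step passed the test only narrowly (0.41, SE 0.13, edgeR adjusted p = 0.0368). That call was lost when either library of day 2 or of day 4 was left out (edgeR adjusted p = 0.0737 to 0.305) and with scaling by total counts alone (0.0803).

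Epb42 (NM_013513, GRCm38 chr2:121017891-121036877, minus strand, 13 exons) encodes a transglutaminase-like protein without enzyme activity that sits on the ankyrin complex. Uninduced cells had little of it, with 4.63 and 4.53 CPM (189 and 225 counts), and reached 45.6 and 53.9 CPM at day 2 and 78.8 and 78.2 at day 4. Its day 4 libraries lay above every other library, and its day 0 libraries were far below. Epb42 had the largest change of the 9 members at 17.1-fold from day 0 to day 4 (log2 fold change 4.10, SE 0.13, edgeR adjusted p = 6.88e-09), of which the first step gave 10.9-fold (3.44, SE 0.13, edgeR adjusted p = 6.39e-08). Over the second step it rose 1.58-fold (0.66, SE 0.11, edgeR adjusted p = 0.00203).

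The anion exchanger itself, Slc4a1, which both anchoring complexes bind and which belongs to the list of membrane attachment genes, started from almost nothing. Its counts were 9 and 12 at day 0, 203 and 303 at day 2 and 1710 and 1513 at day 4, or 0.221 to 47.4 CPM over the 6 libraries. No library of a later day overlapped an earlier one. Slc4a1 rose over the first step (log2 fold change 4.56, SE 0.30, edgeR adjusted p = 6.42e-07) and again over the second (2.87, SE 0.19, edgeR adjusted p = 5.25e-05).

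The members of the junctional complex moved less together. Epb41 (NM_183428, GRCm38 chr4:131923413-132075346, minus strand, 21 exons), whose protein strengthens the contact of spectrin with actin, waited until the second step. Its levels were 330 and 411 CPM at day 0, 347 and 360 at day 2 and 586 and 629 at day 4. The day 2 libraries lay between those of day 0, and both day 4 libraries were higher than all others. The log2 fold change was -0.07 (SE 0.13, edgeR adjusted p = 0.674) over the first step and 0.78 (SE 0.13, edgeR adjusted p = 0.00182) over the second, a 1.72-fold rise. The sign at the first step turned to 0.13 (edgeR adjusted p = 0.387) with total counts alone and to 0.09 without day 0 replicate 2.

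Dematin, encoded by Dmtn (NM_001252662, GRCm38 chr14:70602184-70636048, minus strand, 16 exons), bundles actin filaments. It stood at 25 and 35.4 CPM at day 0, 52.9 and 61.6 at day 2 and 75.9 and 74 at day 4, with no overlap. Dmtn rose 1.89-fold over the first step (log2 fold change 0.92, SE 0.15, edgeR adjusted p = 0.000371) and 2.48-fold in all. At the second step its log2 fold change of 0.39 (SE 0.15) missed the threshold (edgeR adjusted p = 0.0729), although it passed in a fit of only days 2 and 4 (edgeR adjusted p = 0.00365) and in a fit with the replicate block (0.0486).

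Adducin caps the fast-growing ends of actin filaments and recruits spectrin to them, as pairs of an alpha chain with a beta or gamma chain. Its alpha and beta chains went in opposite directions. Add1 (alpha adducin, NM_001102444, GRCm38 chr5:34573664-34632308, plus strand, 16 exons) stood at 86.9 and 83.2 CPM at day 0, 231 and 245 at day 2 and 267 and 269 at day 4. Add2 (beta adducin, NM_001271859, GRCm38 chr6:86028681-86124409, plus strand, 16 exons) stood at 195 and 195 CPM at day 0, 92.7 and 105 at day 2 and 92.5 and 79.8 at day 4. Neither gene's day 0 libraries overlapped those of later days, and the day 2 and day 4 libraries of Add2 lay close together. Add1 rose 2.8-fold over the first step (log2 fold change 1.49, SE 0.11, edgeR adjusted p = 1.29e-06), and Add2 fell 1.97-fold (-0.98, SE 0.12, edgeR adjusted p = 3.3e-05). Neither passed the test at the second step, where the log2 fold changes were 0.17 (edgeR adjusted p = 0.243) for Add1 and -0.20 (edgeR adjusted p = 0.213) for Add2. Add2 was the only one of the 9 members called lower in any comparison of 2 days. The antisense gene Gm44089 shares 356 bases with Add2, 11.3% of its exon bases. Any part of its reads in the Add2 values was not tested.

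Tmod1 (NM_021883, GRCm38 chr4:46038940-46116032, plus strand, 10 exons) encodes the tropomodulin that caps the slow-growing filament ends. It stood at 23.9 and 25.8 CPM at day 0, 93.2 and 98.2 at day 2 and 162 and 153 at day 4. The days were well apart and the libraries of a day close together. Tmod1 rose 3.85-fold over the first step (log2 fold change 1.94, SE 0.11, edgeR adjusted p = 2.39e-07), 1.65-fold over the second (0.72, SE 0.10, edgeR adjusted p = 0.000776) and 6.33-fold in all. Exons of Tstd2 on the opposite strand share 1287 bases with it, 40.8% of its exon bases, and the counting's use of strand is not given in the sources used here. Tstd2 had 1185 to 1644 counts over the 6 libraries and Tmod1 974 to 6908, and the part of Tstd2 reads in the Tmod1 values was not tested.

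Mpp1 (NM_008621, GRCm38 chrX:75109733-75131016, minus strand, 12 exons) encodes a palmitoylated scaffold that joins the Epb41 protein to glycophorin C. Its levels were 50.2 and 51.1 CPM at day 0, 77.2 and 81 at day 2 and 110 and 88.7 at day 4. No days overlapped, although the day 4 libraries were apart from each other. Mpp1 rose 1.56-fold over the first step (log2 fold change 0.64, SE 0.12, edgeR adjusted p = 0.000717) and 1.96-fold in all, while its second step of 0.33 (SE 0.12) missed the threshold (edgeR adjusted p = 0.0552). That step passed with DESeq2 (DESeq2 adjusted p = 0.0432) and without day 4 replicate 2 (0.47, edgeR adjusted p = 0.0479), and was 0.16 without day 4 replicate 1 (edgeR adjusted p = 0.427). Dkc1 on the opposite strand shares 45 exon bases with Mpp1, 1.78% of them.

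On the log2 scale every member but Epb41 moved more in the first step than in the second. In the first step 7 members rose, Add2 fell and Epb41 was not called, in a comparison where 31% of all genes were called higher and 31.5% lower. In the second step 5 members rose (Sptb, Ank1, Epb41, Epb42 and Tmod1), none fell and 4 were not called, where 14% of all genes were called higher and 16.2% lower. Median changes were 1.35 for the first step and 0.41 for the second, beside 0.01 and 0 over all genes. The steps share the day 2 libraries, so their counts are given side by side and not as an overlap. Without day 2 replicate 1, the second step kept only the calls of Epb41 and Tmod1. Sptb then had an edgeR adjusted p of 0.0699, Epb42 of 0.0593 and Ank1 of 0.305, at log2 fold changes of 0.69, 0.54 and 0.32.

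**Figure D2:**
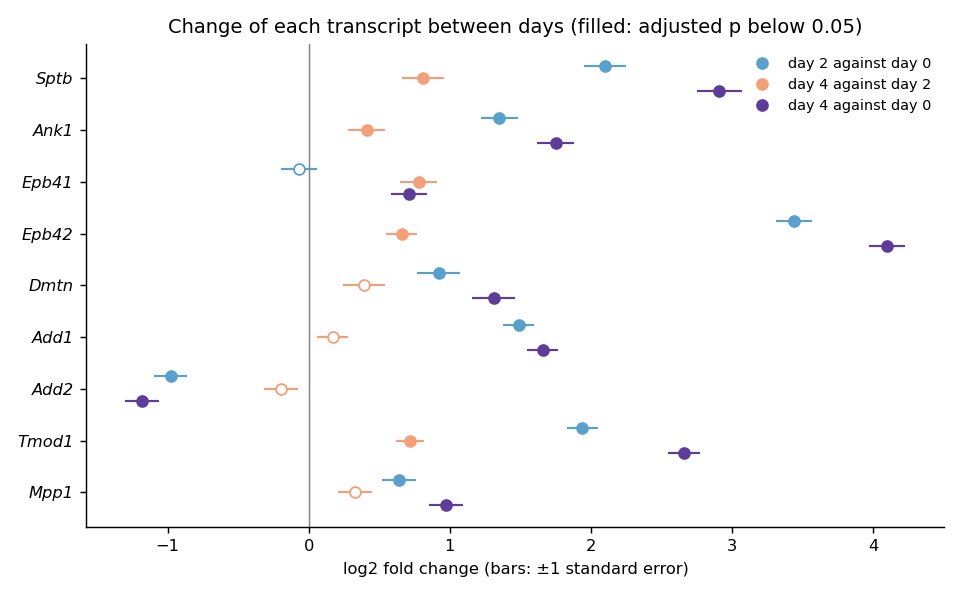
Log2 fold change of each skeleton gene with its standard error, for day 2 against day 0, day 4 against day 2 and day 4 against day 0 (edgeR, n = 2 libraries per day), with filled points where the adjusted p was below 0.05. The first step spans -0.98 (Add2) to 3.44 (Epb42), and the second spans -0.20 (Add2) to 0.81 (Sptb).

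Whether the second step differed from the first was tested directly, as the difference between their log2 fold changes. The second step was the smaller for Epb42 (difference -2.78, SE 0.20, edgeR adjusted p = 2.83e-05), Add1 (-1.32, SE 0.18, edgeR adjusted p = 0.000595), Sptb (-1.30, SE 0.25, edgeR adjusted p = 0.00373), Tmod1 (-1.23, SE 0.17, edgeR adjusted p = 0.000761) and Ank1 (-0.94, SE 0.22, edgeR adjusted p = 0.0102). For Epb41 and Add2 the difference was above 0, at 0.85 (SE 0.23, edgeR adjusted p = 0.0194) and 0.78 (SE 0.20, edgeR adjusted p = 0.0153). Epb41 had its rise in the second step, and Add2 had the larger fall in the first. Dmtn (-0.53, edgeR adjusted p = 0.146) and Mpp1 (-0.32, edgeR adjusted p = 0.261) were not called. Of all genes, 16.9% were called below 0 and 13.1% above 0. With total counts alone, the calls of Epb41 (0.56, edgeR adjusted p = 0.0726) and Add2 (0.50, 0.0868) were lost and Dmtn and Mpp1 were called below 0. Leaving out day 2 replicate 1 gave 4 calls and leaving out day 2 replicate 2 gave 3, all of them below 0. Ank1 (edgeR adjusted p = 0.0721 and 0.161), Epb41 (0.205 and 0.146) and Add2 (0.232 and 0.0811) were not called without either day 2 library, and Sptb (0.092) was not called without day 2 replicate 2. Epb41 was also lost without day 4 replicate 2 (0.0557) and Add2 without day 4 replicate 1 (0.0605).

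Levels can be compared between genes only per kilobase of transcript. On that scale (CPM per kilobase, daily mean) uninduced cells had most Add2 at 62 and Epb41 at 56.4, whose libraries overlapped. Sptb at 22, Add1 at 21.8, Ank1 at 20.1 and Mpp1 at 20.1 followed, with neighbours again not separated, then Tmod1 at 7.87, Dmtn at 5.58 and Epb42 at 1.11. At day 2 Sptb led at 94.6, ahead of Add1 at 61.1, and Epb41 at 53.9 and Ank1 at 51.3 overlapped, as did Add2 at 31.4, Mpp1 at 31.3 and Tmod1 at 30.3. By day 4 Sptb stood at 165, followed by Epb41 at 92.6, Add1 at 68.7 and Ank1 at 67.9, which overlapped, then Tmod1 at 49.9, Mpp1 at 39.3, Add2 at 27.4, Epb42 at 19.1 and Dmtn at 13.8. The place of Add2 depends on its length, which is 3143 bases in the transcript used and 8182 in its longest one, NM_001271857, whose CPM was the same to 3 digits in every library. Other places depend on length as well, through shorter transcripts with nearly the same counts. At day 4 Dmtn stood at 13.8 on 5418 bases and 30.1 on 2377, and Ank1 at 67.9 on 8366 bases and 90.7 on 6257. Epb41 at day 0 stood at 56.4 on 6565 bases and 74.4 on 4948.

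Each set against a single chosen relative, Sptb, Ank1, Tmod1 and Mpp1 gained ground from day 0 to day 4 and Epb41 did not. This does not hold for every relative, since Mpp7 rose by a log2 fold change of 1.11 and Mpp1 by 0.97. Sptb stood at 2.16 and 2.18 times the level per kilobase of Sptbn1, the widely expressed beta spectrin, at day 0, at 9.07 and 10.1 times at day 2 and at 13.6 and 17.1 times at day 4. Ank1 was already 19.7 and 23.5 times Ank3 at day 0 and was 448 and 821 times at day 4, while Ank3 fell to 1.44 and 0.862 CPM. For tropomodulin the order turned, from 0.162 and 0.177 of the level of the widely expressed Tmod3 at day 0, through 1.00 and 1.09 at day 2, to 1.48 and 1.73 at day 4. Mpp1 likewise went from 0.755 and 0.841 of its relative Mpp6 to 3.21 and 2.75 times. Epb41 against Epb41l2 stood at 7.46 and 9.24 times at day 0, 5.50 and 5.37 at day 2 and an overlapping 7.95 and 9.25 at day 4. These ratios are a description and were not tested.

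**Figure D3:**
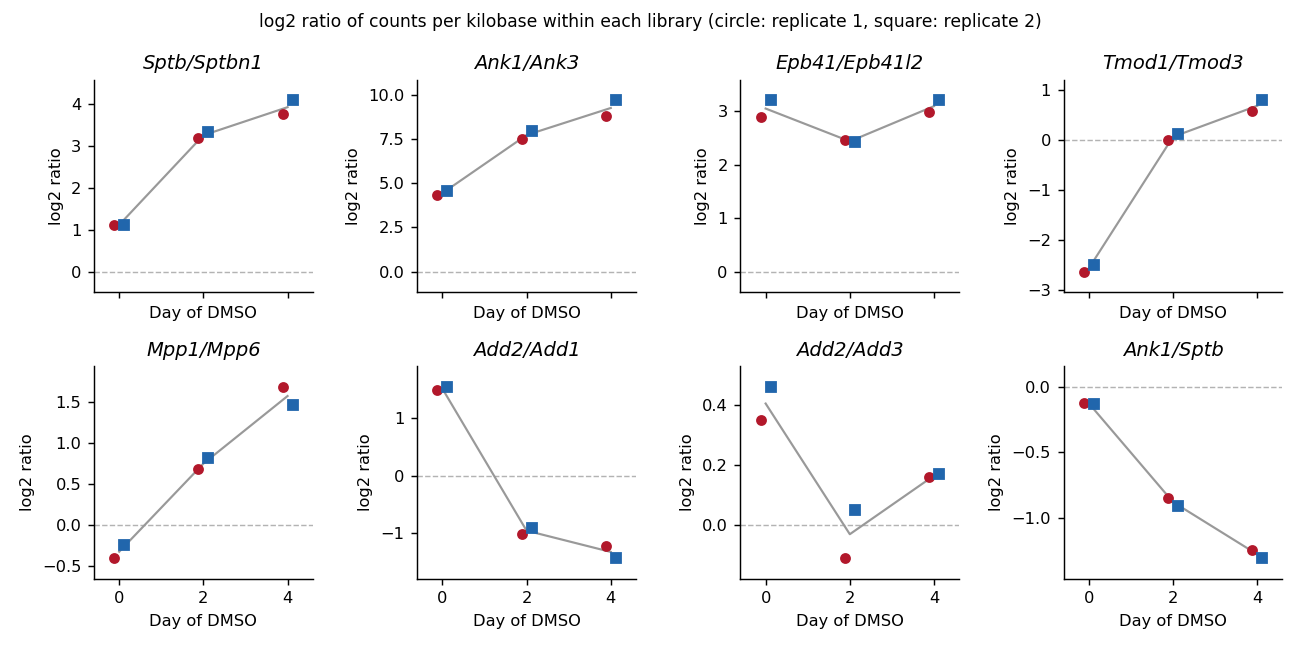
Log2 ratio of counts per kilobase of transcript between related genes in each of the 6 libraries, 1 panel per pair, by day of DMSO, with circles for replicate 1, squares for replicate 2 and a dashed line at 0 for equal levels. Tmod1/Tmod3 goes from below 0 to above 0, Add2/Add1 from above 0 to below 0, and Epb41/Epb41l2 ends where it began.

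The adducin chains reversed their order. Per kilobase, Add2 stood at 2.78 and 2.91 times Add1 at day 0, at 0.497 and 0.530 at day 2 and at 0.429 and 0.368 at day 4. With the longest transcript of each gene the day 0 ratios were 1.10 and 1.15, so the excess at day 0 largely depends on the length. A length is the same on every day and cancels from a change between days. The longest transcripts also had nearly the same counts, so their log2 change from day 0 to day 4, -2.83 instead of -2.84, is no separate check. Against Add3, the gamma chain used widely in other cells, Add2 stood at 1.27 and 1.38 times at day 0, 0.923 and 1.04 at day 2 and 1.11 and 1.13 at day 4, a log2 change of -0.24 between day 0 and day 4. Add3 fell as well, from 197 and 183 CPM to 107 and 91.3 (log2 fold change -0.94, SE 0.11, edgeR adjusted p = 2.27e-05). Alpha adducin was therefore the only adducin chain whose RNA rose.

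Add2 is listed with 6 transcripts, and they did not all fall alike. The transcript NM_001271861 codes for 562 codons, 1593 coding bases of which are shared with NM_001271859, whose reading frame has 725 codons. It lacks 582 coding bases at the far end and has 93 of its own, and that far end holds the lysine-rich tail of beta adducin, through which the protein binds calmodulin and contacts actin and spectrin. The short form had 7849 and 10318 counts at day 0, 2496 and 3114 at day 2 and 1815 and 1928 at day 4, where the long form had 7957 and 9678, 3871 and 5155, and 3338 and 3610. Its ratio to the long form was 0.986 and 1.07 at day 0, 0.645 and 0.604 at day 2 and 0.544 and 0.534 at day 4, with no overlap between days. The log2 fold change from day 0 to day 4 was -2.11 for the short form and -1.18 for the long one. NM_001271859 and NM_013458 had identical counts in every library, so reads on shared exons were counted to more than 1 transcript, the forms are not separate measurements, and the difference was not tested.

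**Figure D4:**
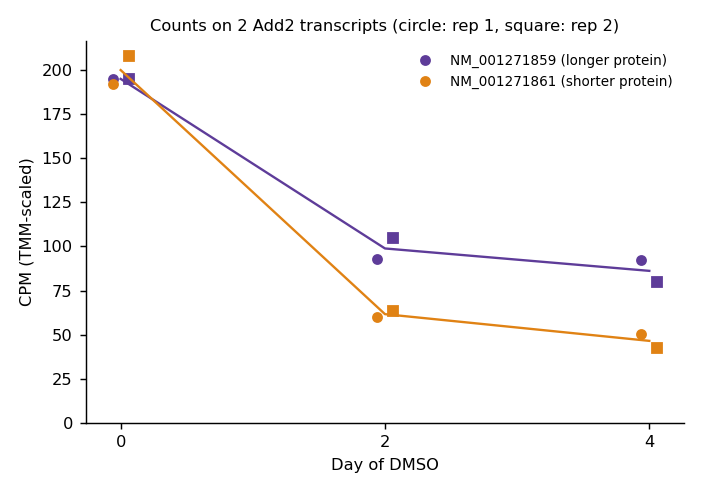
CPM of the Add2 transcripts for the longer protein (NM_001271859) and the shorter one (NM_001271861) in the 6 libraries, by day of DMSO, with circles for replicate 1, squares for replicate 2 and lines through the daily means. Both transcripts lie between 192 and 208 CPM at day 0, and by day 4 the shorter stands at 50.3 and 42.6 and the longer at 92.5 and 79.8.

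Beyond the members, relatives from other tissues did not move as a block. The list held 26 genes, of which 20 were tested. From day 0 to day 4, 9 rose, 6 fell and 5 were not called, with a median log2 fold change of 0.22. Over all genes, 35.5% were called higher and 36.4% lower, so these counts do little to set the relatives apart. Tmod4, best known from skeletal muscle, rose most (1.58, SE 0.20, edgeR adjusted p = 2.81e-05), followed by the scaffold Mpp7 (1.11) and Sptbn4 (0.80). Ank3 (-3.03, SE 0.24, edgeR adjusted p = 8.06e-07) and Mpp3 (-1.10) were among those that fell. Ank3 went from 9.29 and 9.29 CPM to 1.44 and 0.862, so its fall is among low levels. Levels were low for Sptbn4 as well, at 2.82 and 3.4 CPM at day 0 and 5.82 and 5.1 at day 4. Tmod4 went from 8.92 and 6.91 CPM to 18.6 and 28.6, with its day 4 libraries apart from each other. The non-erythroid spectrin chains Sptan1 (0.17, edgeR adjusted p = 0.255) and Sptbn1 (0.10, edgeR adjusted p = 0.455) were not called.

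Genes of the general actin filament mostly fell. Of 15 tested, 12 fell, 2 rose and 1 was not called from day 0 to day 4, with a median log2 fold change of -0.79. That compares with 36.4% of all genes called lower and 35.5% higher. The first step gave the same numbers, where 31.5% of all genes were called lower and 31% higher, while 11 were not called in the second. The crosslinker Flna fell most (-1.95, SE 0.14, edgeR adjusted p = 4.05e-07), from 774 and 611 CPM to 176 and 183, with gamma actin Actg1 (-1.52) and the myosin heavy chain Myh10 (-1.38). Gelsolin, encoded by Gsn, which severs filaments, rose from 14.4 and 16.6 to 57.3 and 70 CPM (2.04, SE 0.14, edgeR adjusted p = 3.43e-07). Vil1 was also called higher, but at 0.0245 and 0 CPM at day 0 and 0.277 and 0.287 at day 4, so no fold change is given for it. Beta actin, Actb, was not called, at 1000 and 682 CPM at day 0 and 737 and 734 at day 4 (-0.20, SE 0.17, edgeR adjusted p = 0.319).

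The list of membrane attachment genes mostly rose. It holds genes of membrane proteins, among which a link to the skeleton is described above only for the anion exchanger and glycophorin C. All 16 genes were tested, and 11 rose, 4 fell and Rhag was not called from day 0 to day 4, with a median log2 fold change of 1.38. Beside them, 35.5% of all genes were called higher and 36.4% lower. Slc4a1 rose most (7.42, SE 0.28, edgeR adjusted p = 9.69e-09), and the Rh protein gene Rhd rose by a log2 fold change of 3.44. Rhd had reached its level by day 2, at 118 and 131 CPM, and stood at 110 and 137 at day 4. The glucose transporter gene Slc2a1 fell most, from 103 and 104 CPM to 8.37 and 10.1 (-3.49, SE 0.15, edgeR adjusted p = 1.66e-08), with the adhesion receptor Cd44 (-2.22) and Icam4 (-0.63).

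**Figure D5:**
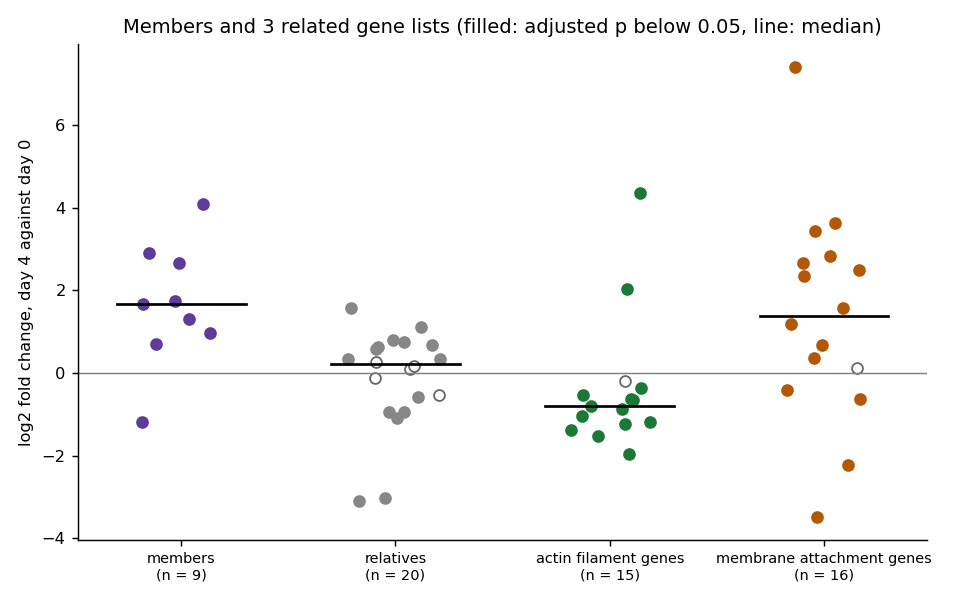
Log2 fold change from day 0 to day 4 of each tested gene of the skeleton members, their relatives, general actin filament genes and membrane attachment genes, with the median of each list as a line and filled points where the adjusted p was below 0.05. Medians are 1.66 for the members, 0.22 for relatives, -0.79 for actin filament genes and 1.38 for membrane attachment genes.

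Genes with the most similar course to each member were looked up among 10307 other genes, by the distance between mean-centred log2 CPM profiles over the 6 libraries. Nearest to Sptb were Slc22a4 (distance 0.146) and Bcl2l11 (0.160), nearest to Ank1 Lysmd4 (0.0724) and Slc35e2 (0.145), and nearest to Epb41 Trim39 (0.132) and 5031425E22Rik (0.139). Epb42 had the most distant neighbours, Rapgefl1 (0.245) and Tspan18 (0.279). Dmtn lay nearest to Pink1 (0.165) and Smad7 (0.179), Add1 to Slc6a8 (0.124) and Ggcx (0.139), and Tmod1 to Pik3r3 (0.171) and Pld2 (0.179). Add2 lay nearest to Prmt5 (0.110) and Polr2f (0.116), and Mpp1 to Dvl3 (0.108) and Gm38426 (0.135). Among the members themselves the nearest pairs were Ank1 with Add1 (0.345) and Sptb with Tmod1 (0.357), whereas Add2 was no nearer than 1.93 to any other member. These distances rest on 6 libraries of 3 days and are a description.

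The labelled cell identity was checked with markers. The 8 erythroid markers together made 932 to 991 CPM in uninduced cells, 4070 to 4840 by day 2 and 17300 to 19300 by day 4, and 7 of 8 rose from day 0 to day 4 while Klf1 fell. Of 25 markers of other lineages, 14 were tested, and 2 rose, 9 fell and 3 were not called from day 0 to day 4. Shares over all genes in that comparison were 35.5% called higher and 36.4% lower. Megakaryocyte markers made 274 to 279 CPM in uninduced cells, 215 to 238 by day 2 and 546 to 621 by day 4, almost all of it Itga2b, which alone stood at 209 and 227 CPM at first and 531 and 606 at the end. Gp9 also rose, from 1.52 and 1.09 CPM to 1.94 and 2.14, whereas Pf4 (log2 fold change -2.39), Itgb3 (-2.56) and Gp1bb (-0.72) of the same lineage fell. Myeloid markers stayed at or below 6.89 CPM in sum, mast cell markers at or below 3.79 with Tpsb2 at 0 in every library, lymphoid markers at or below 31.7 and fibroblast and muscle markers at or below 8.96. The part of the megakaryocyte genes in the rise of the skeleton genes was not tested.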

How the data were processed

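The authors trimmed reads of stranded TruSeq mRNA libraries, aligned them with TopHat to mm10 and deposited, library by library, the unnormalized counts of RefSeq transcripts. The submitters' processing notes name cutadapt, TopHat, HTSeq and DESeq2, and the counting's use of strand, its treatment of overlapping genes and its annotation release are not given in the sources used here. The line for reads on no feature was left out. Symbols for 32199 of 32654 transcripts came from a RefSeq table (GRCm38.p6), 187 came from GENCODE, 268 had none, and lengths came from GENCODE. Transcripts were filtered with filterByExpr by day (18351 kept), scaled with TMM (factors 0.921 to 1.07) and fitted together over the 6 libraries with edgeR 4.0.16 (R 4.3.3, glmQLFit and glmQLFTest). P-values were adjusted by Benjamini-Hochberg over all transcripts and called below 0.05. The fit was also run on simulated counts with far fewer changed transcripts than were called here. That run does not bear on these calls. DESeq2 1.42.0, other scalings and filters, the replicate block, the longest transcript of each gene and leaving out each library were alternatives. The members and lists were chosen with earlier results of these data known. Named are all members, the ratio pairs, the 3 highest and 3 lowest genes of each list and the 2 genes nearest in course to each member, except that some genes are not reported here, while other genes of the lists and the transcripts of Add2 were named after their values were seen. A planned count of members called at both steps was not reported, because the steps share the day 2 libraries.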

Additional observations from a re-analysis of the deposited data

How the results depend on the processing

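Of 495 values of single members recomputed under an alternative, 459 kept their direction and side of the threshold, 18 lost the call, 16 gained it and 2 turned their sign. Use of the longest transcript is among these alternatives. For every member but Add1 and Add2 it is the transcript already used, and for those 2 the counts are nearly the same. Its values could therefore hardly change, and they add to the 459. Both sign changes were of Epb41 for day 2 against day 0, which was never called (0.13 with total counts alone, and between -0.22 and 0.09 with a library left out). The log2 change of the Epb41/Epb41l2 ratio from day 0 to day 4 was 0.05, and ranged from -0.11 (without day 0 replicate 1) and -0.06 (without day 4 replicate 2) to 0.20. When a call also needed a log2 change of 1 or more in size, 5 members were called at the first step (day 0 to 2), 0 at the second (day 2 to 4) and 4 for the difference between the steps, as were 5 relatives and 8 actin filament genes over the whole course, by construction of a stricter rule. Leaving out each library in turn gave 2 to 7 members called at the second step and 3 to 8 for the difference between the steps, 13 to 16 relatives, 12 to 14 actin filament genes, 14 to 16 membrane attachment genes and 8 to 11 markers of other lineages. At the first step it gave 8 members and over the whole course 9, each time. Such fits rest on 5 libraries, in which the lone library of a day is assumed to vary like the others. Total counts alone moved the median log2 fold change of all genes to 0.21 for day 2 against day 0, and the share of higher among called genes was then 63.4%, 32.7% and 55.1% for the 3 comparisons, beside counts of 3841 higher and 3902 lower, 1739 and 2010, and 4393 and 4501 with TMM. Over all transcripts, differences between replicates correlated by only 0.0316 to 0.0791 between days, so no shared effect of the replicate number was visible there. Among the members, replicate 2 had the higher CPM on every day for Sptb, Ank1 and Epb41, and not for the others. Whether cultures with the same number were paired is not given by the labels, and a low correlation cannot decide it. With the replicate block, 8, 6 and 9 members were called in the 3 comparisons, Dmtn being gained for day 4 against day 2 (0.40, edgeR adjusted p = 0.0486), and no other call of a member changed. With 2 cultures a day, these values describe the spread between 2 cultures, at a depth of at least 35294930 counts a library.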
